A study of Mus musculus with 11 samples.

Results

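Heat shock proteins and their DnaJ co-chaperones were followed in RNA-seq counts of whole mouse hearts. The members are the protein-coding genes of the deposited count table whose symbols begin with Hspa, Hspb, Hsp90, Dnaja, Dnajb, Dnajc or Hsf and a number, together with Hspd1, Hspe1, Hsph1 and Bag1 to Bag6. The rule takes 86 of the 54532 genes in the table. Of these, 74 had enough counts to be tested, among 14862 genes tested in all, and 12 did not. The members were sorted into 9 classes by where the protein works and how the gene is known to be controlled.

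All mice were C57BL/6, and the time given for every heart is 26 weeks. The Chow group, with 3 libraries, carries no other treatment in its labels. The HFD+STZ group has 4 libraries, and its label commonly stands for a high-fat diet with streptozotocin, a toxin of insulin-producing beta cells, though the labels do not spell it out. A further 4 libraries, here called METTL3, were labelled HFD+STZ with METTL3 delivered by AAV, usually an adeno-associated virus. They therefore share the HFD+STZ treatment with the second group. METTL3 is the enzyme that adds N6-methyladenosine to messenger RNA. The labels give neither the promoter that drives METTL3 nor a control virus for the HFD+STZ mice, and do not say that replicates are separate animals. The p-values therefore speak only of how these libraries scatter, and part of that scatter may be technical.

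Heat shock proteins bind unfolded or partly folded proteins. HSP70 proteins (Hspa genes) cycle between ATP- and ADP-bound states, J-domain proteins (Dnaja, Dnajb, Dnajc) hand them clients and speed ATP hydrolysis, and nucleotide exchange factors (Hsph1 and the BAG proteins) reset the cycle. HSP90 proteins act later, on clients such as kinases and steroid receptors. Small heat shock proteins (Hspb) hold unfolded proteins without ATP and are abundant in striated muscle, where they associate with sarcomeres and the cytoskeleton. Some members are made at all times, and others are induced when unfolded protein frees the transcription factor HSF1. Some of those of the endoplasmic reticulum and of mitochondria answer to signals of their own compartment.

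HSF1 binds heat shock elements, inverted repeats of the letters GAA. A search of RefSeq promoter windows (build GRCm38.p6, 250 bases before to 50 after each start) covered 69 of the 86 members. The 150 bases before the start of Hspa1a and Hspa1b, the paired inducible HSP70 genes on the minus strand of chromosome 17, are shown because these genes carry the largest differences below. They are given 5′ to 3′ with the repeat (GAA, 2 bases of any kind, TTC) in capitals, for Hspa1a from chr17:34972157-34972306 and for Hspa1b from chr17:34959239-34959388. The same stretch of Hspb1, from chr5:135887769-135887918 on the plus strand, shows a small heat shock protein gene with 2 such repeats.
Hspa1a: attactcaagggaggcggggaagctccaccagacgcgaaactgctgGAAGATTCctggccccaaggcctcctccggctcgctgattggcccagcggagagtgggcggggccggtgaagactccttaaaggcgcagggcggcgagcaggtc
Hspa1b: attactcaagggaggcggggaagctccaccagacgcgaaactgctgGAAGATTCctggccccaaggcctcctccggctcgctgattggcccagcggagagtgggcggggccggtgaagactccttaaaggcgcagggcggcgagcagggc
Hspb1: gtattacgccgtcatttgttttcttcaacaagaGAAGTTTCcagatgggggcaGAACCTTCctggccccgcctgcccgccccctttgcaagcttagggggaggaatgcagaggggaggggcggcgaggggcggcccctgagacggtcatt
The Hspa1a and Hspa1b stretches were identical at 149 of 150 bases, and in both the repeat begins 104 bases before the start.

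Other members carry the repeat in forms that are set side by side here in windows of 30 bases, again 5′ to 3′ with the motif in capitals. Hsph1 (chr5:149636280-149636309, minus strand), Hspe1 (chr1:55088053-55088082, plus strand) and Dnajb6 (chr5:29735843-29735872, plus strand) hold at least 3 alternating units. Dnaja1 (chr4:40722333-40722362, plus strand), Dnajb4 (chr3:152193841-152193870, minus strand) and Bag3 (chr7:128523603-128523632, plus strand) hold 2. The motif shown begins 15 bases after the start in Hsph1 and 42 bases after it in Bag3, and before the start in the others. Dnaja1 and Dnajb4 also have promoter windows at other starts that hold no match.
Hsph1: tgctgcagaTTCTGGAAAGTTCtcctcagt
Hspe1: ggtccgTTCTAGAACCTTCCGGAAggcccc
Dnajb6: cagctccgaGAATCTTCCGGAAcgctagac
Dnaja1: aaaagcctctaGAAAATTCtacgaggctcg
Dnajb4: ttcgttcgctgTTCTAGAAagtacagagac
Bag3: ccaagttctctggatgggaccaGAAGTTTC
The 3-unit form, searched on both strands as GAA, TTC and GAA, or TTC, GAA and TTC, each 2 bases apart, was found in 4 members (Hsph1, Hspd1, Hspe1 and Dnajb6), or 5.8%, against 0.662% of 27025 genes with a window. Hspd1 and Hspe1 are transcribed away from each other and their windows hold the same site, so it is counted for both. The 2-unit form, GAA and TTC in either order 2 bases apart, which reads the same on both strands and which the 3-unit form contains, was found in 18 members (26.1%) against 17% of all genes. By class it was present in 6 of 7 inducible cytosolic members with a window, 4 of 6 small heat shock protein genes, 2 of 7 mitochondrial, 1 of 11 endoplasmic reticulum and 0 of 7 constitutive cytosolic members. Hspa8 and Hsp90ab1, the constitutive members of highest level, had no window and were not searched, nor were Hsp90aa1 and Hspa9. These are matches of letters and not measured binding sites. The Dnajb1 windows held no match, which says only that these letters are not in them.

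Sequencing depth ran from 13900531 to 16952639 counts per library. Counts outside the mitochondrial genome were fewest in METTL3 libraries, at 7651470 to 8982819. They were 10454785 to 11989987 in HFD+STZ and 11537045 to 12994921 in Chow libraries. Chow replicate 3 stood apart before any chaperone was examined: 9.28% of its counts came from the mitochondrial genome against 25.3% to 45.5% elsewhere, and 15734 genes had a count against 17317 to 20769. Its levels leaned to short transcripts, with a Spearman correlation of -0.297 between gene length and deviation from the mean over 14832 genes, against -0.119 to 0.253 in the other libraries. Sample codes in the labels run from 25 to 33 in 6 libraries (METTL3 1 to 3 and HFD+STZ 2 to 4) and from 78 to 98 in the other 5, which hold all Chow libraries, HFD+STZ 1 and METTL3 4; the labels do not say what the codes stand for. Mettl3 itself had 7.88, 7.42 and 3.04 CPM in Chow, 7.82, 7.42, 4.39 and 5.78 CPM in HFD+STZ and 9.64, 6.52, 6.57 and 10.8 CPM in METTL3 libraries, with overlap, and did not pass the test between METTL3 and HFD+STZ hearts (log2 fold change 0.40, SE 0.32, edgeR quasi-likelihood test with Benjamini-Hochberg adjusted p = 0.759), so the counts do not show the labelled overexpression. The 9 cardiomyocyte markers tested had a summed level of 29667 to 41875 CPM (counts scaled to a common library total, with library sizes adjusted by the TMM method). Not all 9 were abundant: Myl7 ran from 0 CPM in METTL3 replicates 2 and 4 to 35.4 CPM in HFD+STZ replicate 1. Nppa had 17.1 to 132 CPM.

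Levels were compared between genes as CPM per kb of gene length, averaged over the 3 group means. Small heat shock proteins of muscle and a pair of constitutive cytosolic chaperones led. Hspb7, a cardiac small heat shock protein bound to sarcomeric filamin, stood at 662 CPM per kb, and Hspb6 (HSP20) at 371. Hsp90ab1, the constitutive HSP90, followed at 356 and Hspa8, the constitutive HSC70, at 332. Hspb1 (HSP25 of mouse) stood at 279. The mitochondrial HSP70 Hspa9 reached 148, the exchange factor Bag1 137, the mitochondrial chaperonin Hspd1 (HSP60) 110 and the endoplasmic reticulum HSP70 Hspa5 (BiP) 101. The inducible genes lay lower. Bag3 reached 67.3 and Hsp90aa1, the inducible HSP90, 38.6, whereas Dnajb1 was at 7.36, Hspa1b at 4.32 and Hspa1a at 2.94. Hspa1a was thus 61st of the 86 members by this measure.

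**Figure D1:**
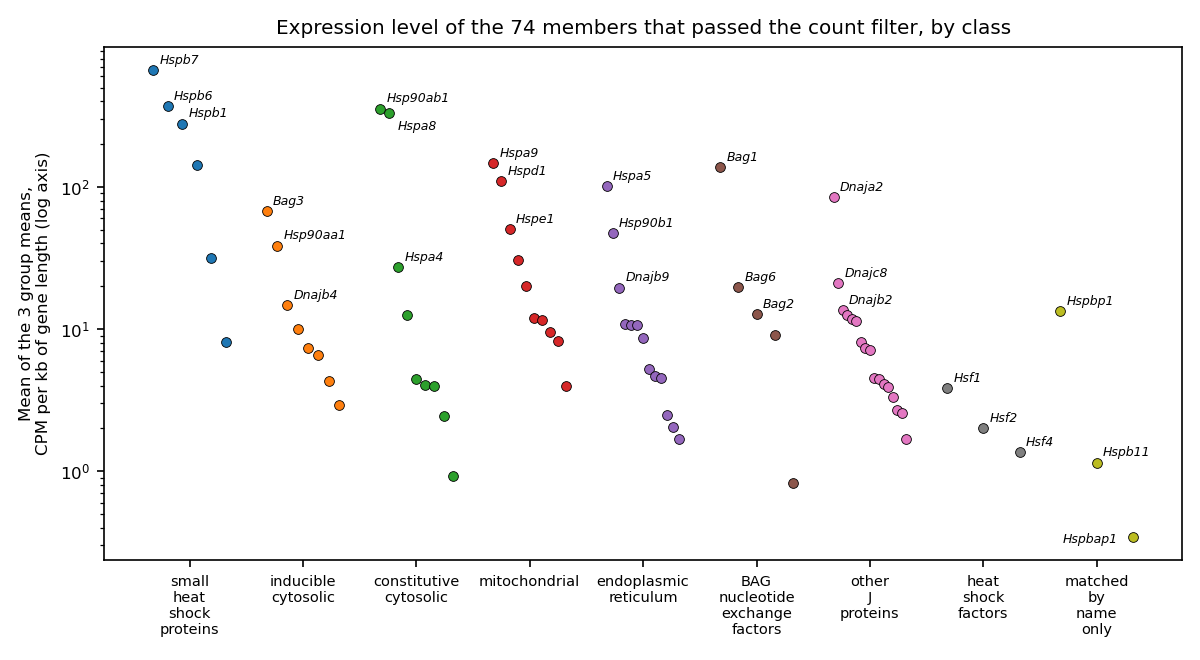
Expression level of the 74 tested members, as the mean of the 3 group means in CPM per kb of gene length on a log axis, by class; each point is a gene and the leading genes of each class are named. Hspb7 (662), Hsp90ab1 (356) and Hspa8 (332) lie above every inducible gene (Bag3 at 67.3 down to Hspa1a at 2.94), while each class also holds genes of low level.

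The lower calls against Chow lay mainly among inducible cytosolic genes. By the edgeR test, Hspa1a and Dnajb1 fell in HFD+STZ against Chow hearts and no member was called higher. There limma voom called 7 members lower and 3 higher, beside 1954 of all 14862 tested genes called in either direction. In METTL3 against Chow hearts, edgeR called Hspa1a, Hspa1b, Dnajb1 and Dnaja1 lower in this class, Hspb2 and Dnajb5 fell outside it, and Hsf2 rose. Between METTL3 and HFD+STZ hearts edgeR called no member, DESeq2 1 and limma voom 4. Of all 14862 tested genes they called 0, 102 and 395. The comparisons with Chow share the same 3 Chow libraries, so their values are set side by side and are not independent.

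Hspa1a (chr17:34969190-34972156, minus strand, mm10) encodes an inducible cytosolic HSP70. It had 31.4, 21.2 and 10.8 CPM in the Chow libraries, 6.25, 2.55, 1.32 and 2.98 CPM in HFD+STZ replicates 1 to 4, and 1.72, 1.92, 1.06 and 2.24 CPM in METTL3 replicates 1 to 4. All 8 HFD+STZ and METTL3 libraries lay below the lowest Chow library, and HFD+STZ replicate 1 was the highest of the 8. Hspa1a fell 6.40-fold in HFD+STZ hearts (log2 fold change -2.68, SE 0.47, edgeR Benjamini-Hochberg adjusted p = 0.0469) and 12.2-fold in METTL3 hearts (-3.61, SE 0.49, adjusted p = 0.00726), from 21.1 ± 10.3 CPM in Chow (SD, n = 3). The values rest on 14 to 606 counts per library.

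Hspa1b (chr17:34956436-34959238, minus strand), which encodes the same kind of inducible HSP70, had 45.1, 25.5 and 13.7 CPM in Chow, 10.7, 2.07, 1.74 and 3.04 CPM in HFD+STZ and 2.90, 4.93, 3.17 and 4.30 CPM in METTL3 libraries. Here too no treated library reached the lowest Chow library, and HFD+STZ replicate 1 stood between the groups. Hspa1b fell 7.35-fold in METTL3 hearts (log2 fold change -2.88, SE 0.58, edgeR adjusted p = 0.0282). In HFD+STZ hearts its log2 fold change was -2.67 (SE 0.57, edgeR adjusted p = 0.0872). The Hspa1a and Hspa1b transcripts are near copies: 63.8% of the 31-base words of Hspa1a also occur in Hspa1b, so the split of counts between the 2 genes is uncertain. Their summed level was 76.5, 46.7 and 24.5 CPM in Chow, 17.0, 4.62, 3.07 and 6.03 CPM in HFD+STZ and 4.62, 6.85, 4.23 and 6.54 CPM in METTL3 libraries. Fitted as a single gene in an analysis chosen after seeing the data, the pair had a log2 fold change of -2.67 (SE 0.51, edgeR adjusted p = 0.0545) in HFD+STZ and -3.15 (SE 0.52, adjusted p = 0.0160) in METTL3 hearts against Chow.

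Dnajb1 (HSP40, chr8:83608193-83612653, plus strand), the J protein that works with inducible HSP70, had 46.4, 43.3 and 34.6 CPM in Chow, 23.5, 15.1, 12.7 and 14.1 CPM in HFD+STZ and 12.2, 13.7, 10.04 and 15.9 CPM in METTL3 libraries. The 8 treated libraries again lay below all Chow libraries. Dnajb1 fell 2.53-fold in HFD+STZ hearts (log2 fold change -1.34, SE 0.23, edgeR adjusted p = 0.0469) and 3.20-fold in METTL3 hearts (-1.68, SE 0.23, adjusted p = 0.00751).

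Dnaja1 (chr4:40722150-40737149, plus strand), another cytosolic J protein, had 132, 93.3 and 200 CPM in Chow, 107, 48.8, 46.4 and 47.5 CPM in HFD+STZ and 54.1, 46.0, 49.7 and 65.6 CPM in METTL3 libraries. HFD+STZ replicate 1 overlapped the Chow range, the other 7 treated libraries did not. It fell 2.64-fold in METTL3 hearts (log2 fold change -1.40, SE 0.32, edgeR adjusted p = 0.0401), while in HFD+STZ hearts the log2 fold change was -1.19 (SE 0.32, adjusted p = 0.193). The short-transcript library Chow replicate 3 is the highest for this gene, and without it the METTL3 difference was -1.08 (edgeR adjusted p = 0.0535). The call was kept in 2 of 11 omissions, those of Chow 1 and HFD+STZ 1, with adjusted p of 0.0518 to 0.107 in the rest.

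Hsph1, an HSP110 exchange factor, and Hsp90aa1 were lower by size without passing the test. Hsph1 had 102, 53.4 and 54.0 CPM in Chow, 27.1 to 41.9 in HFD+STZ and 26.5 to 44.7 in METTL3 libraries, with no overlap with Chow. Its log2 fold change was -0.93 in HFD+STZ (SE 0.26, edgeR adjusted p = 0.204) and -0.91 in METTL3 hearts (SE 0.26, adjusted p = 0.0733). Hsp90aa1 had 215, 174 and 185 CPM in Chow and 95.3 to 148 CPM in HFD+STZ libraries, while METTL3 libraries, at 96.9 to 180 CPM, overlapped both groups. Of its 31-base words 51.4% also occur in other genes. Bag3, the exchange factor that pairs with Hspb8 in chaperone-assisted autophagy of sarcomere proteins, overlapped between Chow (157 to 240 CPM) and HFD+STZ (148 to 219 CPM) and had 113 to 164 CPM in METTL3 libraries.

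Dnajb4, a J protein of muscle that is placed with the inducible class, ran the other way. It had 109, 105 and 97.4 CPM in Chow, 128, 126, 116 and 124 CPM in HFD+STZ and 159, 130, 187 and 168 CPM in METTL3 libraries. The 3 groups did not overlap. Its log2 fold change between METTL3 and Chow was 0.63 (SE 0.16, edgeR adjusted p = 0.0538) and between METTL3 and HFD+STZ 0.38 (SE 0.15, adjusted p = 0.483).

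**Figure D2:**
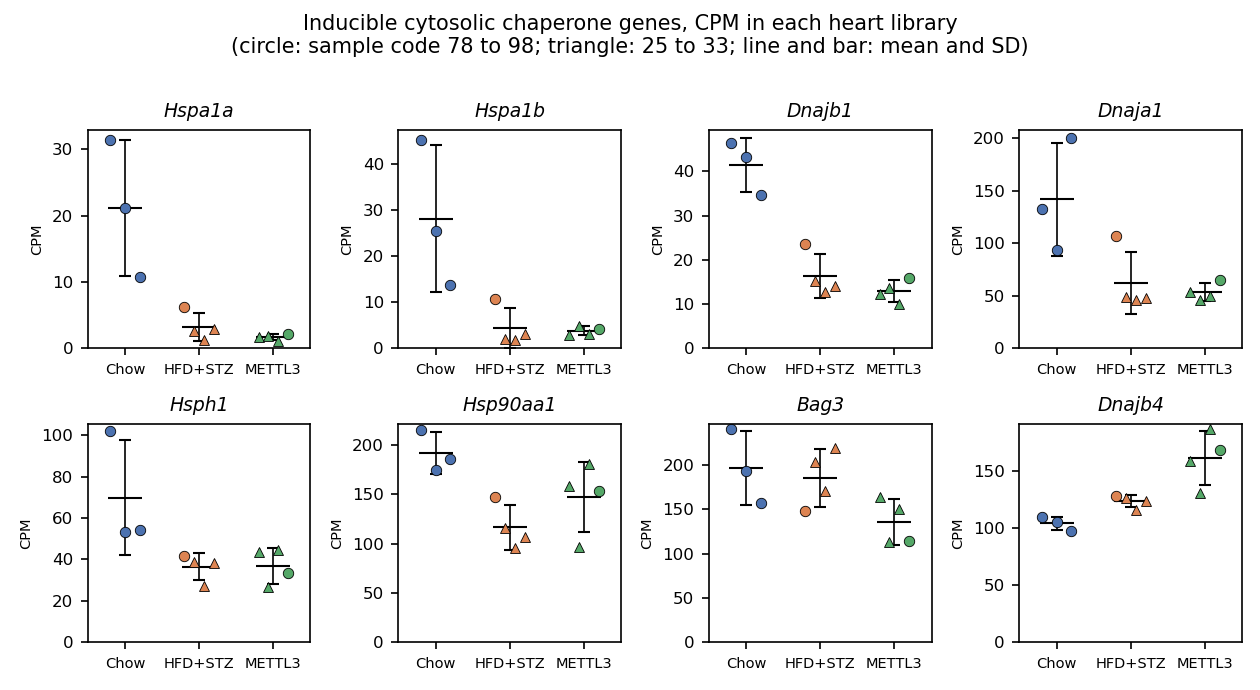
CPM of the 8 inducible cytosolic members in each library; points are libraries, circles have sample codes 78 to 98 and triangles 25 to 33, and the line and bar give the group mean and SD. For Hspa1a, Hspa1b and Dnajb1 every HFD+STZ and METTL3 library lies below the Chow libraries, with HFD+STZ replicate 1 the highest HFD+STZ library, and Dnajb4 is higher in both groups.

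As a class, 5 of the 8 inducible members were lower without overlap and 1 higher in HFD+STZ against Chow hearts, and the same counts held for METTL3 against Chow. Over all tested genes, 4.88% were lower and 5.52% higher without overlap in HFD+STZ against Chow hearts, and 8.26% and 10.5% in METTL3 against Chow hearts. By the edgeR test 2 of 8 were called lower in HFD+STZ hearts, where 0.0336% of all tested genes were called lower and 0.135% higher, and 4 of 8 in METTL3 hearts, where the shares were 1.37% and 1.82%. The class median log2 fold change was -1.06 in HFD+STZ and -1.16 in METTL3 hearts against Chow, beside -0.02 and -0.01 over all tested genes. The class was chosen with earlier results of these data known, so these shares describe it and do not test it. The near copies Hspa1a and Hspa1b count as 2 of its 8 members. In whole hearts fewer cells of a type and less RNA per cell cannot be told apart.

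The 2 calls in HFD+STZ hearts stand close to the threshold. Both were lost when any of 9 libraries was left out (Chow 1 or 2, HFD+STZ 2, 3 or 4, or any METTL3 library, which enter through the shared estimate of the spread), with adjusted p up to 0.160 for Hspa1a and 0.166 for Dnajb1; the log2 fold changes then ran from -3.20 to -2.27 and from -1.57 to -1.24 over all 11 omissions. Both were kept without Chow replicate 3 and without HFD+STZ replicate 1. In METTL3 hearts the calls of Hspa1a and Dnajb1 were kept in all 11 omissions, while that of Hspa1b was kept in 6 and lost without Chow 2 or any METTL3 library (adjusted p up to 0.0839).

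Sample code range and group cannot be fully told apart, since no Chow library has a code from 25 to 33. Within codes 78 to 98, HFD+STZ replicate 1 (6.25 CPM) and METTL3 replicate 4 (2.24 CPM) lay below the 3 Chow libraries for Hspa1a, and at 23.5 and 15.9 CPM for Dnajb1. When the code range was added to the model, log2 fold changes against Chow came to -2.03 for Hspa1a and -0.94 for Dnajb1 in HFD+STZ hearts (edgeR adjusted p = 0.642 and 0.600), and -2.83 and -1.25 in METTL3 hearts (adjusted p = 0.107 and 0.0925). None of the 7 members called in METTL3 hearts passed the test in that fit.

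Levels of other gene lists are set beside these results. All 24 immediate early genes listed were tested, and their summed level was 699 to 927 CPM in Chow, 460 to 685 CPM in HFD+STZ and 487 to 592 CPM in METTL3 libraries. Of them 4 were called lower in METTL3 against Chow hearts (Jund, Ier5, Fosl2 and Nr4a1), and none in HFD+STZ hearts, where 8 were lower at an unadjusted p under 0.05 by edgeR. At that unadjusted threshold 6.53% of all tested genes were lower and 5.58% higher in HFD+STZ against Chow hearts, 3.63% and 5.43% in METTL3 against HFD+STZ hearts, and 11.1% and 10.6% in METTL3 against Chow hearts, and the counts at this threshold given below are to be read against these shares. The summed level of 12 macrophage markers was 285 to 542 CPM in Chow, 201 to 414 in HFD+STZ and 136 to 225 in METTL3 libraries, with 4 of 12 called lower in METTL3 against Chow hearts (C1qa, Csf1r, C1qc and Fcgr1). Lyve1 of this list ran the other way, at 18.7 to 21.4 CPM in Chow, 24.8 to 51.6 in HFD+STZ and 25.6 to 39.1 in METTL3 libraries. Adipocyte markers were low: the sum of 6 was 10.8, 6.13 and 4.17 CPM in Chow, 5.31 CPM in HFD+STZ replicate 1, 0.182 to 0.243 CPM in HFD+STZ replicates 2 to 4 and 0.0783 to 1.13 CPM in METTL3 libraries. Only 2 of the 6 had enough counts to be tested. A single gene, Cfd, made up most of the Chow sum, at 5.70, 4.73 and 2.93 CPM. The sum of 8 neutrophil markers was 39.8 and 38.5 CPM in HFD+STZ replicates 2 and 3 and 2.19 to 8.62 CPM in all other libraries, with 3 of 5 tested higher in HFD+STZ against Chow hearts at an unadjusted p under 0.05 and none called by edgeR. The part of these lists in the chaperone differences was not tested.

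Among small heat shock proteins, the edgeR test called Hspb2 in METTL3 against Chow hearts and made no other call. Hspb2 (chr9:50751078-50752354, minus strand), a muscle protein that forms complexes with Hspb3, had 25.8, 27.5 and 56.5 CPM in Chow, 23.4, 30.5, 24.95 and 25.1 CPM in HFD+STZ and 17.0, 20.1, 16.2 and 15.2 CPM in METTL3 libraries. METTL3 libraries lay below all others. It fell 2.14-fold against Chow (log2 fold change -1.09, SE 0.25, edgeR adjusted p = 0.0403), and without Chow replicate 3, the highest library, the log2 fold change was -0.65 (adjusted p = 0.0395). The call was also kept without Chow 1 or HFD+STZ 1 and lost in the other 8 omissions, with adjusted p of 0.0591 to 0.110. Hspb2 overlaps Cryab on the opposite strand by 1030 bases, and Cryab, the abundant heart alpha B crystallin, had 220947 counts against 4546 for Hspb2. No strand setting is stated, so their reads cannot be told apart there.

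Hspb6 and Hspb7, the most abundant of the class, leaned higher in HFD+STZ hearts. Hspb6 had 671, 768 and 207 CPM in Chow, 809 to 1186 CPM in HFD+STZ and 916 to 1151 CPM in METTL3 libraries, without overlap with Chow. Its log2 fold change was 0.82 (SE 0.35, edgeR adjusted p = 0.378) in HFD+STZ and 0.93 (SE 0.35, adjusted p = 0.146) in METTL3 hearts, and 0.43 and 0.52 without Chow replicate 3, the lowest library. Hspb7 had 1467, 1706 and 1739 CPM in Chow, 1549, 2631, 2484 and 2444 CPM in HFD+STZ and 1446 to 1742 CPM in METTL3 libraries. HFD+STZ replicates 2 to 4 stood above every other library, while replicate 1 lay among the Chow and METTL3 values. The log2 fold change of Hspb7 was 0.48 (SE 0.21, edgeR adjusted p = 0.392) for HFD+STZ against Chow and -0.53 (SE 0.19, adjusted p = 0.453) for METTL3 against HFD+STZ.

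Chow replicate 3 was far from the other Chow libraries for Hspb1 and Hspb3. Hspb1 had 273, 270 and 698 CPM in Chow, 182 to 264 CPM in HFD+STZ and 181 to 260 CPM in METTL3 libraries, and 52.3% of its 31-base words also occur in the pseudogene Hsp25-ps1. Its log2 fold change of -0.84 in HFD+STZ hearts (SE 0.31, edgeR adjusted p = 0.331) was -0.23 without that library. Hspb3 had 3.99, 5.59 and 22.2 CPM in Chow and 2.94 to 6.51 CPM elsewhere. Hspb8, at 190 to 313 CPM in Chow, 248 to 323 in HFD+STZ and 269 to 302 in METTL3 libraries, overlapped throughout. The class median was -0.22 in HFD+STZ and -0.49 in METTL3 hearts against Chow, and -0.01 and -0.22 without Chow replicate 3.

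**Figure D3:**
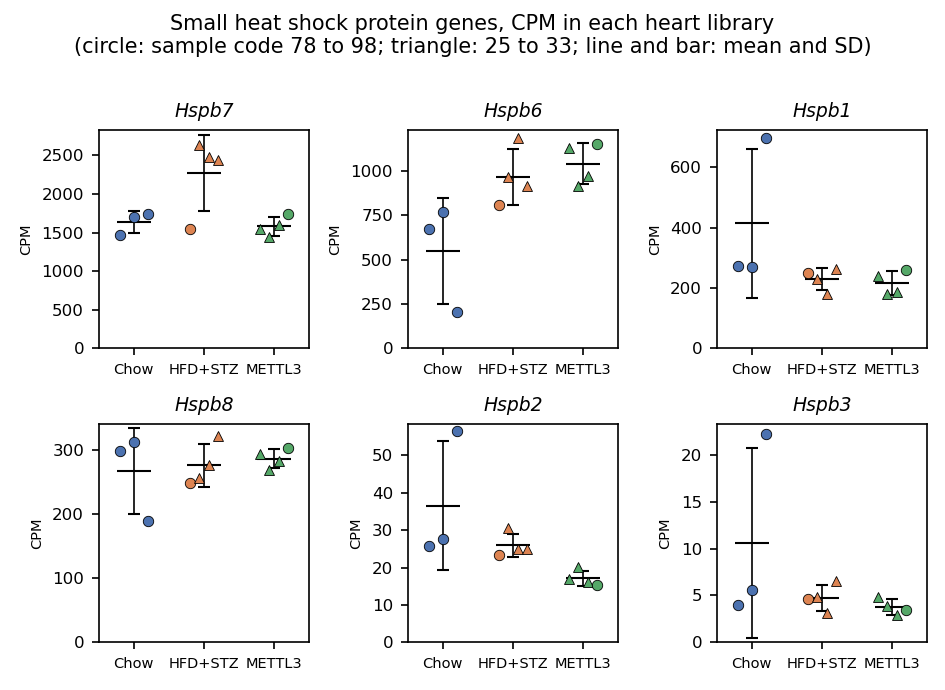
CPM of the 6 tested small heat shock protein genes in each library; circles have sample codes 78 to 98, triangles 25 to 33, and the line and bar give the group mean and SD. A single Chow library, replicate 3, is the highest Chow value of Hspb1 (698), Hspb2 (56.5) and Hspb3 (22.2) and the lowest of Hspb6 (207), and HFD+STZ replicates 2 to 4 stand above all other libraries for Hspb7.

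The constitutive cytosolic chaperones had no member called in any comparison by edgeR, and 1 of 9, Hspa14, lay at an unadjusted p under 0.05, in HFD+STZ against Chow hearts. Hspa8 had 1404 ± 292 CPM in Chow (SD, n = 3), 1405 ± 89.0 in HFD+STZ (n = 4) and 1468 ± 174 in METTL3 libraries (n = 4). The 95% interval of its log2 fold change was -0.41 to 0.41 for HFD+STZ and -0.35 to 0.47 for METTL3 against Chow, which leaves out a change of the size seen in Hspa1a. Of the 31-base words of Hspa8, 43.5% also occur in other genes. How reads of such words were assigned is not given, and the effect on its counts was not measured. Hsp90ab1, whose protein shares most clients with Hsp90aa1, had 1084 to 1459 CPM in Chow, 983 to 1101 in HFD+STZ and 725 to 1053 in METTL3 libraries, with a log2 fold change of -0.24 (interval -0.65 to 0.18) in HFD+STZ and -0.35 (interval -0.77 to 0.07) in METTL3 against Chow hearts. The METTL3 libraries lay below Chow without overlap for 3 of the 9 members (33.3%, against 8.26% of all genes), Hsp90ab1, Hspa14 and Hspa2. Hspa14, a ribosome-associated HSP70, had 18.9 to 21.2 CPM in Chow and 12.1 to 18.1 in HFD+STZ libraries (log2 fold change -0.52, SE 0.20, edgeR adjusted p = 0.342). Hspa4, an HSP110 exchange factor, had 138 to 150 CPM in Chow, 124 to 168 in HFD+STZ and 115 to 176 in METTL3 libraries. Hspa1l and Hspa2, HSP70 genes best known from testis, were low, at 1.18 to 6.59 and 3.93 to 8.96 CPM. The class median was -0.01 in HFD+STZ and -0.22 in METTL3 hearts against Chow.

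Members of the endoplasmic reticulum, some of whose genes answer to the unfolded protein response, had 13 of 13 tested and 0 called by edgeR in any comparison. There were 1, 0 and 3 at an unadjusted p under 0.05 in HFD+STZ against Chow, METTL3 against HFD+STZ and METTL3 against Chow hearts. The last is near the share over all genes. Hspa5 had 347 to 496 CPM in Chow, 393 to 455 in HFD+STZ and 343 to 574 in METTL3 libraries. Hsp90b1 (GRP94), the HSP90 of this compartment, had 153 to 309 CPM in Chow, 167 to 188 in HFD+STZ and 124 to 216 in METTL3 libraries. Both overlapped in all pairs of groups. Dnajb9 (ERdj4), a J protein that keeps the sensor IRE1 inactive, had 44.6, 37.1 and 37.3 CPM in Chow, 42.2 to 52.3 CPM in HFD+STZ and 48.2 to 73.996 CPM in METTL3 libraries. METTL3 libraries lay above Chow, with a log2 fold change of 0.64 (SE 0.19, edgeR adjusted p = 0.0761). Dnajb11 (ERdj3), a secreted partner of Hspa5, ran the opposite way, at 32.96, 37.6 and 55.4 CPM in Chow, 32.8 to 36.4 in HFD+STZ and 26.1 to 29.3 in METTL3 libraries, with the METTL3 libraries below all others (log2 fold change against Chow -0.61, SE 0.18, adjusted p = 0.0761). Dnajc3 (p58IPK), an Hspa5 co-chaperone that also restrains the kinase PERK, was at 43.3 to 80.6 CPM with overlap. The class median was 0.15 in HFD+STZ and 0.28 in METTL3 hearts against Chow.

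Mitochondrial members, 10 of 10 tested, had 0 called by edgeR in any comparison and 0, 1 and 1 at an unadjusted p under 0.05 in the same order. Hspa9 (mortalin), which pulls proteins through the inner membrane, had 519 to 567 CPM in Chow, 483 to 680 in HFD+STZ and 457 to 704 in METTL3 libraries. Hspd1 had 285 to 333, 223 to 343 and 205 to 345 CPM in that order. The intervals of their log2 fold changes in HFD+STZ against Chow hearts were -0.26 to 0.58 and -0.50 to 0.41. Of the 31-base words of Hspd1, 50.1% also occur in other genes. Hspe1 (HSP10), the lid of the Hspd1 chaperonin and its head-to-head neighbour, had 51.6, 60.3 and 180 CPM in Chow and 55.2 to 71.95 CPM in all treated libraries. Its log2 fold change in HFD+STZ hearts was -0.69 with and 0.12 without Chow replicate 3. Dnajc4 had 22.6 to 24.9 CPM in Chow, 22.5 to 29.1 in HFD+STZ and 17.7, 17.0, 15.4 and 14.96 CPM in METTL3 libraries, which lay below both other groups. Dnajc15 and Dnajc19, J proteins of the import motor, overlapped in all comparisons.

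Among the J proteins of no class above, 17 of 25 were tested and Dnajb5 fell in METTL3 against Chow hearts. Dnajb5 (HSC40, chr4:42949814-42959425, plus strand), a cytosolic J protein of heart and muscle, had 72.3, 58.5 and 52.4 CPM in Chow, 41.6, 53.9, 38.6 and 62.0 CPM in HFD+STZ and 35.9, 23.0, 38.5 and 35.1 CPM in METTL3 libraries. METTL3 libraries lay below both other groups. Its log2 fold change against Chow was -0.88 (SE 0.22, 1.84-fold lower, edgeR adjusted p = 0.0493), and the call was kept in 1 of 11 omissions of a library, that of Chow replicate 3, with adjusted p of 0.0505 to 0.113 in the rest. Dnajb6, a co-chaperone that suppresses aggregation and is mutated in limb-girdle muscular dystrophy, had 24.2 to 50.8 CPM in Chow, 44.1 to 61.4 in HFD+STZ and 34.0 to 49.8 in METTL3 libraries, with log2 fold changes of 0.53 and -0.49 for HFD+STZ against Chow and METTL3 against HFD+STZ (edgeR adjusted p = 0.404 and 0.534). Dnaja2, the most abundant J protein per kb at 85.2, overlapped between Chow (217 to 242 CPM) and HFD+STZ (218 to 285 CPM), and its METTL3 libraries (276 to 288 CPM) lay above Chow (log2 fold change 0.32, SE 0.16, edgeR adjusted p = 0.260). The class median was 0.14 in HFD+STZ and 0.00 in METTL3 hearts against Chow.

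None of the 5 BAG exchange factors outside the inducible class was called by edgeR, with 1 at an unadjusted p under 0.05 in each comparison with METTL3 hearts and none in HFD+STZ against Chow hearts. Bag2, an inhibitor of the ubiquitin ligase CHIP, had 29.3 to 38.8 CPM in Chow, 36.2 to 41.0 in HFD+STZ and 40.4 to 50.2 in METTL3 libraries (log2 fold change against Chow 0.46, SE 0.15, edgeR adjusted p = 0.113). Bag1 had 147 to 324 CPM in Chow with Chow replicate 3 highest, and 147 to 195 CPM elsewhere.

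Of the heat shock factors, Hsf2 rose in METTL3 against Chow hearts and Hsf1 did not differ beyond its spread. Hsf2 (chr10:57486385-57513135, plus strand), a factor that forms trimers with HSF1 and is short-lived, had 14.4, 14.2 and 12.9 CPM in Chow, 16.6, 19.0, 22.1 and 15.9 CPM in HFD+STZ and 22.2, 23.2, 28.6 and 28.4 CPM in METTL3 libraries. The 3 groups stood in that order without overlap. The rise against Chow was 1.85-fold (log2 fold change 0.89, SE 0.18, edgeR adjusted p = 0.0282) and was kept in 7 of 11 omissions of a library, with adjusted p up to 0.0831 without METTL3 replicate 4, and lost also without Chow 2, METTL3 1 or METTL3 3. The log2 fold change was 0.41 in HFD+STZ against Chow (SE 0.18, adjusted p = 0.385) and 0.48 in METTL3 against HFD+STZ hearts (SE 0.16, adjusted p = 0.428). Hsf1, the master factor of the heat shock response, which is controlled mainly after transcription, had 20.7 to 30.003 CPM in Chow, 23.1 to 31.3 in HFD+STZ and 24.8 to 30.7 in METTL3 libraries, with an interval of -0.33 to 0.44 in HFD+STZ and -0.35 to 0.42 in METTL3 hearts against Chow. Hsf4, best known from the lens, lay at 1.25 to 3.17 CPM. The members that the pattern takes by name only are not chaperones of these families: Hspbp1 is an HSP70 exchange factor, Hspb11 is an intraflagellar transport protein, and Hspbap1 binds Hspb1. None was called by edgeR, and none was at an unadjusted p under 0.05.

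Between METTL3 and HFD+STZ hearts, edgeR called 0% of all tested genes lower and 0% higher, and none of the 74 members. At an unadjusted p under 0.05 there were 3 higher and 7 lower members, beside 807 higher and 539 lower genes in all. DESeq2 called 1 member, Dnajc4, and limma voom 4, Hspb7, Hspb2, Dnajc14 and Dnajc4, each lower in METTL3 hearts. Of all 14862 tested genes DESeq2 called 102 and limma voom 395. Without overlap 5 members were lower (6.76%, against 4.14% of all genes) and 4 higher (5.41%, against 5.43%). Dnajc4 had the smallest p of the members (log2 fold change -0.62, SE 0.15, edgeR adjusted p = 0.350). For the inducible HSP70 genes the interval of the log2 fold change was -1.93 to 0.08 for Hspa1a and -1.38 to 0.96 for Hspa1b, and for Dnajb1 it was -0.81 to 0.14. The inducible class median was -0.21, and 0.13 without HFD+STZ replicate 1.

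**Figure D4:**
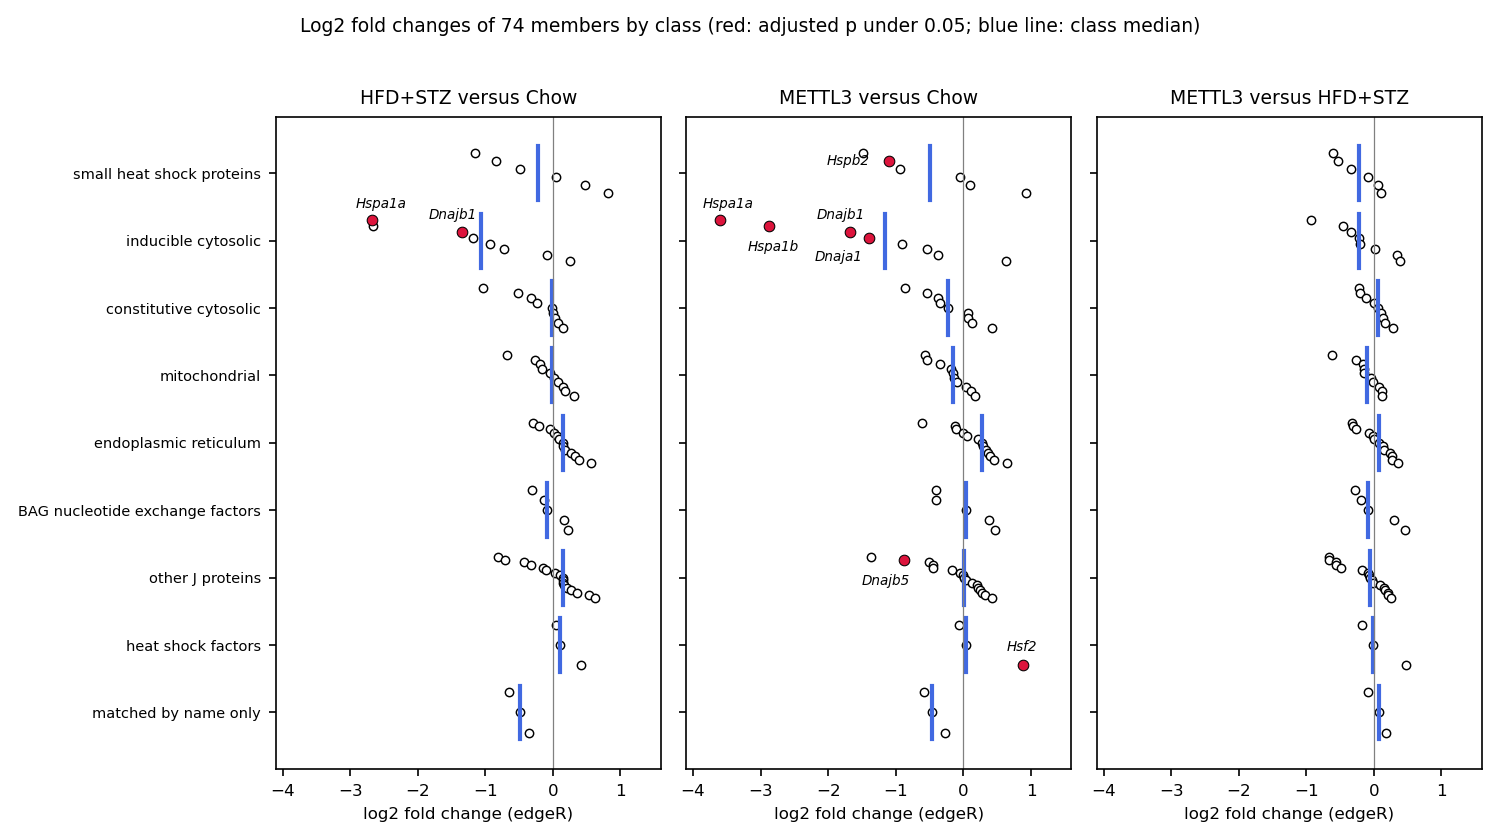
Log2 fold changes of the 74 tested members by class in the 3 comparisons, from the edgeR fit; each point is a gene, red points have an adjusted p under 0.05 and blue lines are class medians. The inducible class lies to the left in both comparisons with Chow (medians -1.06 and -1.16) while the other classes have medians between -0.49 and 0.28, and no point is red between METTL3 and HFD+STZ.

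Set side by side, the classes differed in their medians against Chow chiefly through the inducible genes. This is a description only, since the classes were chosen with earlier results of these data known. For HFD+STZ against Chow, 7 of 8 inducible members were below 0, beside 5 of 9 constitutive, 5 of 10 mitochondrial and 3 of 13 endoplasmic reticulum members, and the median of all 74 was 0.01. Over all 74 members 7 were higher (9.46%, against 5.52% of all genes) and 7 lower (9.46%, against 4.88%) without overlap. For METTL3 against Chow 10 were higher (13.5%, against 10.5% of all genes) and 13 lower (17.6%, against 8.26%), with a median of -0.06. By library, the median of the 8 inducible members, in log2 CPM around each gene's own mean, was 1.08, 0.36 and 0.61 in Chow, 0.17, -0.32, -0.60 and -0.42 in HFD+STZ and -0.20, -0.56, -0.33 and -0.31 in METTL3 libraries. HFD+STZ replicate 1 was the treated library nearest to Chow. For the endoplasmic reticulum members these medians ran from -0.34 to -0.01 in Chow, -0.09 to 0.06 in HFD+STZ and -0.21 to 0.20 in METTL3 libraries, with overlap between all pairs of groups.

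**Figure D5:**
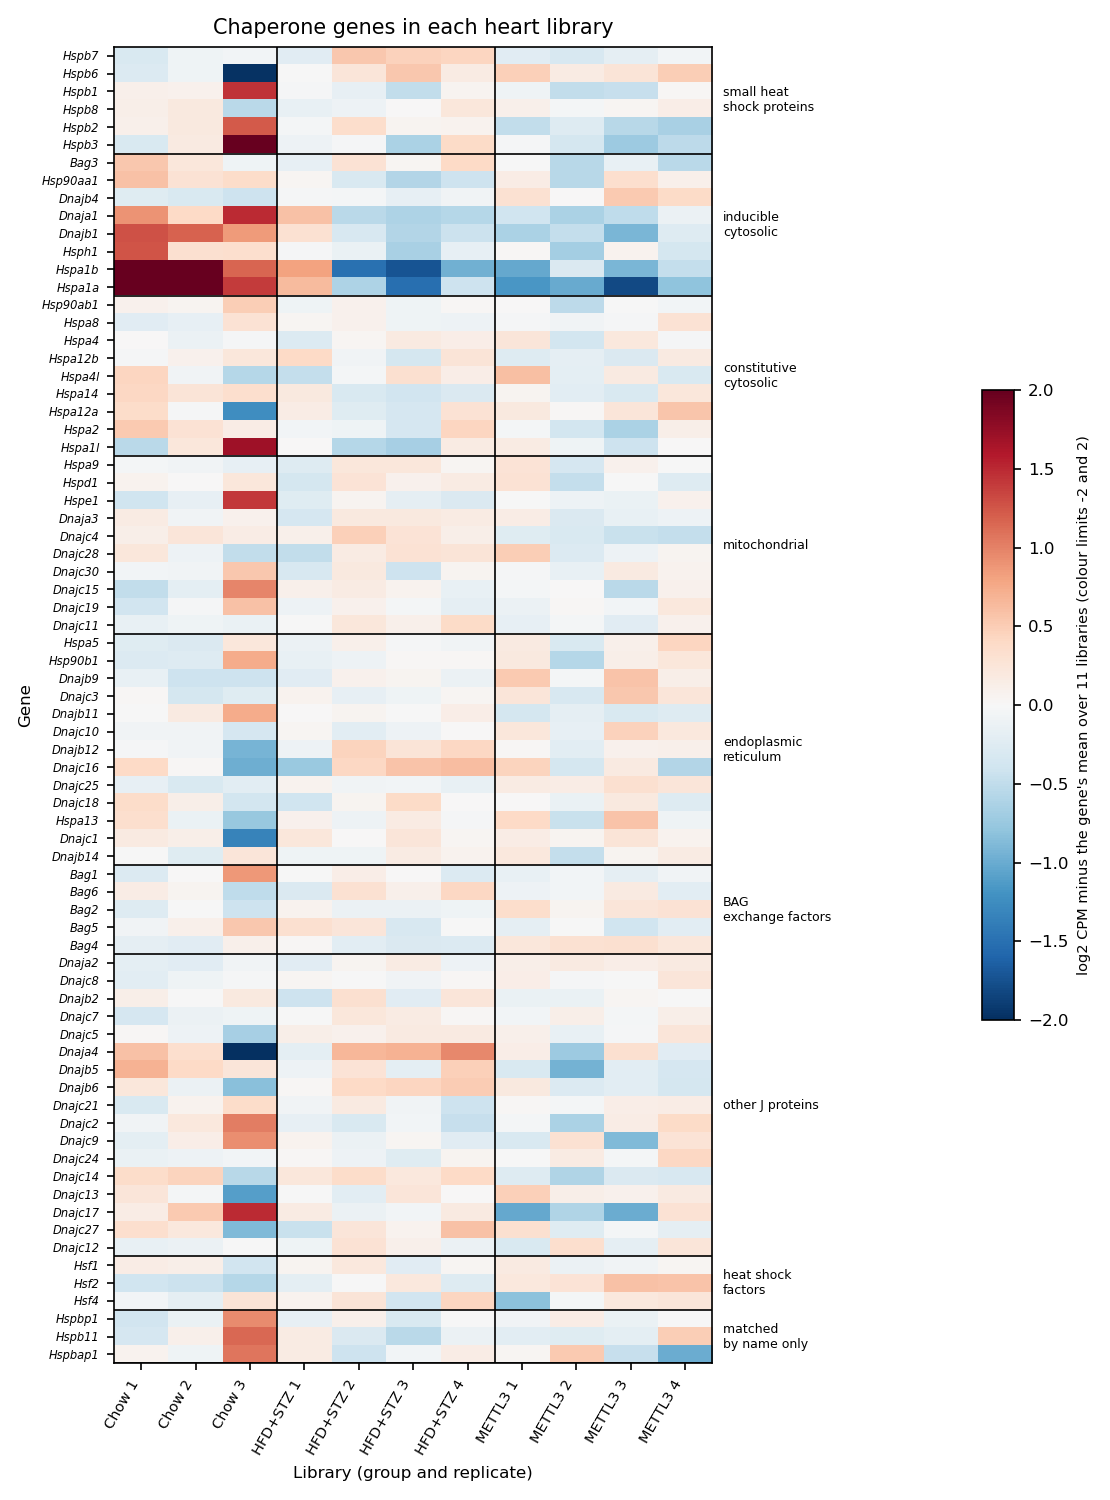
Log2 CPM of the 74 tested members around each gene's mean over the 11 libraries (colour limits -2 and 2), with genes in rows by class and libraries in columns. Most inducible genes are red in the Chow columns and blue in most HFD+STZ and METTL3 columns, Dnajb4 being reversed, and the Chow replicate 3 column stands out in many other classes, as in Hspb6 (207 CPM) and Hspe1 (180 CPM).

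Partners of these chaperones outside the name rule were examined in lists. Of 17 HSP90 and HSP70 co-chaperones, Fkbp5 was called higher and none lower in HFD+STZ hearts, and in METTL3 against Chow hearts Fkbp5 was higher and Ahsa1 lower. Fkbp5, an HSP90-bound immunophilin that glucocorticoids induce, had 20.7, 21.8 and 25.4 CPM in Chow, 53.1 to 227 in HFD+STZ and 60.5 to 112 in METTL3 libraries, without overlap with Chow (log2 fold changes 2.71 and 1.98, edgeR adjusted p = 0.0309 and 0.0284). Ahsa1, which stimulates the ATPase of HSP90, had 58.1 to 81.3 CPM in Chow and 33.8 to 48.5 CPM in METTL3 libraries (log2 fold change -0.72, SE 0.18, adjusted p = 0.0479). The list medians were -0.22 and -0.14 against Chow.

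Of 13 subunits of the cytosolic chaperonin TRiC and of prefoldin, which fold actin and tubulin, none was called by edgeR against Chow, with medians of -0.44 in HFD+STZ and -0.48 in METTL3 hearts. At an unadjusted p under 0.05, 1 was lower in HFD+STZ hearts, and 6 were lower and 1 higher in METTL3 hearts, beside 11.1% and 10.6% of all genes in the latter. Their summed level was 840 and 920 CPM in Chow replicates 1 and 2, 1807 CPM in Chow replicate 3 and 838 to 976 CPM in the treated libraries. Of 16 folding factors of the endoplasmic reticulum, Herpud1, a component of degradation at that membrane, was called higher (log2 fold change 1.40, SE 0.27, edgeR adjusted p = 0.0251) and Creld2, a stress-induced folding factor, lower (-1.18, SE 0.29, adjusted p = 0.0465) in METTL3 against Chow hearts. Herpud1 had 127 to 164 CPM in Chow, 237 to 538 in HFD+STZ and 332 to 499 in METTL3 libraries. Both treated groups thus lay above Chow without overlap, though HFD+STZ against Chow was not called. Creld2 had 9.90, 9.73 and 20.3 CPM in Chow, 8.36 to 11.6 in HFD+STZ and 4.26 to 7.17 in METTL3 libraries. Chow replicate 3 was its highest library. Of 13 mitochondrial chaperones and proteases, none was called by edgeR in any comparison. At an unadjusted p under 0.05, 2 were higher in HFD+STZ against Chow hearts and 2 lower in METTL3 against Chow hearts. Of 10 tested small heat shock and HSF1 target genes beyond the rule, none was called by edgeR, with 1, 1 and 3 lower at an unadjusted p under 0.05 in HFD+STZ against Chow, METTL3 against HFD+STZ and METTL3 against Chow hearts. Cryab had 919 to 2501 CPM in Chow, 1088 to 1326 in HFD+STZ and 1075 to 1373 in METTL3 libraries.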

How the data were processed

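RNA for 11 whole-heart libraries was extracted with Trizol, depleted of ribosomal RNA and made into libraries with a NEB kit, per the labels' protocols. The deposited table holds whole-number read counts per gene, and FastQC, Salmon and mm10 are listed in the submitters' processing notes. The role of each tool, annotation, strandedness and the treatment of reads that match several genes are not given in these sources. The authors deposited no normalized values that were used here.

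The main test was run in R 4.3.3 with edgeR 4.0.16: TMM scaling, filterByExpr with a minimum count of 10 and total of 15, group means of all 11 libraries, the quasi-likelihood test, and Benjamini-Hochberg adjustment over 14862 genes at a threshold of 0.05. Standard errors come from the coefficient and its F statistic, and intervals are at 95%. Levels in CPM rest on TMM-adjusted totals; a prior count of 2 was added before taking log2. Per-kb levels use the gene length of the deposited table. Word sharing used 31-base words of GENCODE M21 transcripts. Counts of genes with close copies or overlapping neighbours are uncertain, by an amount that the share of words does not measure.

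Members, classes and lists were chosen with earlier results of these data known, so no list was tested. Genes named are all members called in any comparison, leading members of each class by level and p, a fixed set of well-known chaperones, and called members of related lists. Marker lists of neutrophils, endothelium, fibroblasts, smooth muscle, adipocytes and erythroid cells had 0 genes called by edgeR in any comparison, and at most 3 genes of a list at an unadjusted p under 0.05 in a comparison. One further marker result is not reported here. On simulated counts of 14862 genes with 200 changed, the test recovered 12%, 19% and 33% of simulated log2 changes of 1, and 65%, 69% and 77% of those of 2, for HFD+STZ against Chow, METTL3 against HFD+STZ and METTL3 against Chow. These counts were drawn independently around a common mean per gene. They held no deviating library, sample code effect or group difference in mitochondrial share, so recovery in the real libraries may differ. Alternatives were DESeq2 1.42.0, limma 3.58.1 voom with quality weights, other scaling, filters and samples, a replicate block, the sample code range as covariate, and leaving out libraries.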

Additional observations from a re-analysis of the deposited data

Results flagged for a closer look

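Within groups of 4 libraries, 148 sets of values were examined for a library lying far from the rest (by Dixon's test of the gap to its nearest neighbour at the 95% level), and 9 were found; chance gives about 1 in 20. In HFD+STZ replicate 1, Dnaja1 had 106.8 CPM against 46.4 to 48.8 in the other HFD+STZ libraries, Hspa1b 10.7 against 1.74 to 3.04, Hspa14 18.1 against 12.1 to 13.0 and Bag2 40.99 against 36.2 to 37.0, all high, while Dnaja3, a mitochondrial J protein, was low at 94.4 against 133.7 to 136.6. This library is the only HFD+STZ library with a sample code from 78 to 98. In METTL3 replicate 2, Hsp90ab1 was low at 725.2 CPM against 998 to 1053, as was Hsp90b1 at 124.2 against 200.5 to 216.1. In METTL3 replicate 4, Hspa8 was high at 1725.9 CPM against 1348 to 1402, as was Hspb11 at 3.136 against 1.84 to 1.89.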

How the results depend on the processing

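No result changed direction among those called. The count of members called in HFD+STZ against Chow hearts, 2 by edgeR, was 4 with DESeq2, 10 with limma voom, 4 with no filter, 0 with only the 2 groups compared, 0 with the sample code range as a covariate and 7 without Chow replicate 3 and HFD+STZ replicate 1 together. Over all genes tested the counts were 25 by edgeR and then 307, 1954, 190, 0, 1 and 493 in that order. For limma voom, 10 of 74 members thus stood beside 1954 of 14862 genes. Leaving out 1 library gave 0 to 4, with 3 without Chow replicate 3 (78 of all genes) and 4 without HFD+STZ replicate 1 (215 of all genes). In METTL3 against Chow hearts, where 7 were called, the counts were 17 with DESeq2, 22 with limma voom, 3 with only the 2 groups compared, 0 with the code range and 12 without both libraries, and 2 to 8 with 1 library left out. Over all genes tested they were 475 by edgeR and then 1509, 3078, 54, 1, 1258 and 34 to 750 in that order. In METTL3 against HFD+STZ hearts, with 0 called, the counts were 1 with DESeq2, 4 with limma voom and 5 without both libraries. Over all genes tested these settings called 102, 395 and 403. The inducible class median was -0.78 with limma voom in METTL3 against Chow hearts. In METTL3 against HFD+STZ hearts it was 0.13 without both libraries, and ran from -0.39 to 0.13 with 1 library left out. Replicate numbers showed no clear pairing of the samples: 2 of 10 same-numbered pairs correlated above 0.1, and 2 of 11 libraries correlated best with their own number. With so few libraries per group these values cannot exclude a pairing. With a replicate block, 1 member was called in HFD+STZ and 1 in METTL3 against Chow hearts, beside 2 and 5 of all genes. DESeq2 size factors and leaving out mitochondrial genes each gave 2 and 7 calls against Chow. Over all genes the calls were 26 and 418 with DESeq2 size factors and 35 and 403 without mitochondrial genes. The cause of these shifts was not tested. Low counts limit Hspa1a and Hspa1b, with as few as 14 and 25 counts in a library.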

Other observations

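The 12 members with too few counts to test were mostly J proteins and factors known from testis or brain. Dnajb8 and Dnajc5g had 0 counts in all libraries. Dnajb13, Dnajb3, Dnajb7, Dnajc6, Dnajc22, Dnajc5b, Hspb9, Hsf2bp, Hsf3 and Hsf5 had levels from 0 to 0.717 CPM, with Hsf2bp the highest of them in METTL3 replicate 4. Dnajb13, a J protein of sperm tails, had 50 counts in all and overlaps Ucp2 on the opposite strand, which had 25444 counts.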
